A study of Mus musculus with 2 samples.

Results

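USF1 peaks that lie in exons away from gene starts made up 245 of the 10624 peaks of the mm9 list. A peak was taken where its summit lay inside an exon, coding or untranslated, of a protein-coding transcript, over 1 kb and up to 100 kb from all protein-coding 5′ ends in Gencode vM1. The choice used position only, and no measured value. Under the same distance limits 3141 peaks lay in introns and 3163 between genes, while 3082 peaks lay within 1 kb of a protein-coding 5′ end and are called promoter peaks here.

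USF1 was mapped by ChIP-seq, the sequencing of DNA recovered with an antibody to the factor, in CH12.LX, an immortalized line from a B-cell lymphoma of the mouse strain B10.H-2aH-4bp/Wts. There was 1 group of 2 biological replicates with no treatment named in the labels, and both replicates came from the same line. No other condition was measured, so the comparisons are between classes of peaks of 1 list that was derived from both replicates together. Sequencing depth is unknown, since no source used here gives read numbers, control libraries were not used here, and single peaks are not independent replicates.

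USF1 is a transcription factor with a basic helix-loop-helix leucine zipper domain that binds DNA as a dimer, often with its relative USF2. Its preferred site is the E-box CACGTG, a sequence that reads the same on both strands. Related factors such as MAX, MITF, TFEB and the clock proteins use the same core, and the bases beside it help to set which of them binds. An exon that holds such a site carries both the message of the gene and a site for the factor.

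The DNA under the strongest exonic peaks shows the E-box inside the transcribed sequence. Each stretch is 30 bases of mm9, written along the strand of the host gene, with the E-box nearest the summit in capitals. Peaks in 5′ untranslated sequence come first.
Hoxb4, chr11:96179954-96179983, plus strand: ggctcggaggatCACGTGggcctctaactt
Arsa, chr15:89306591-89306620, minus strand: tcagccaattgtCACGTGaccgcgggcgta
Hoxc9, chr15:102811935-102811964, plus strand: ggtaaatacgatCACGTGggggctggggaa
These are followed by peaks in 3′ untranslated sequence.
Wwc1, chr11:35652065-35652094, minus strand: ctttcatgtggcCACGTGaccgtgaccgga
Usp37, chr1:74484781-74484810, minus strand: agtcactctgccCACGTGacctgcctgggt
Bhlhe41, chr6:145812307-145812336, minus strand: cagcgcagggccCACGTGatgagcagatgt

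Peaks in coding sequence are shown because the bases of the core are read there as codons. The summit in Phf15 lay 11 bp from the border of its exon, so the stretch shown may run past that border. In Phf15, Sh2d2a, Ssfa2 and Arsg the capitals are the whole codons CAC and GTG, for histidine and valine, while in Crlf2 and Gpt the core is out of step with the codons.
Phf15, chr11:51660183-51660212, minus strand: ctctctgcaggtCACGTGacatccacatca
Sh2d2a, chr3:87653273-87653302, plus strand: ggggatgggcgcCACGTGgtgctaggtgaa
Ssfa2, chr2:79497373-79497402, plus strand: cttggtgaggacCACGTGactcctacagcg
Arsg, chr11:109433565-109433594, plus strand: cctgagcagcacCACGTGgcccctctcatt
Crlf2, chr5:109986573-109986602, minus strand: gacggtggaggtCACGTGgggctcgggccc
Gpt, chr15:76528445-76528474, plus strand: ctctgtgccaggCACGTGaccgctgctgcc
The strongest peaks without CACGTG held the related core CACATG, which reads CATGTG on the other strand.
Itsn1, chr16:91870528-91870557, plus strand: tgcagccttgatCATGTGacttgcagcatg
Nkiras2 and Zfp385c, chr11:100488176-100488205, minus strand: taagtctcagggCATGTGacagcccagtca
Chrng, chr1:89108228-89108257, plus strand: gatgggtatggtCACATGactttgagcagt
Pla1a, chr16:38407805-38407834, minus strand: ttgatctgtgatCACATGagggcagtacac

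Exonic peaks divided between coding and 3′ untranslated sequence. Of the 245 peaks, 104 (42.4%, Wilson 95% interval 36.4 to 48.7) had the summit in coding sequence, 131 (53.5%, 47.2 to 59.6) in 3′ untranslated sequence and 9 (3.67%) in 5′ untranslated sequence. The remaining peak, in Vps13d, lay in 5′ or 3′ untranslated sequence depending on the transcript. All intervals of shares cover counting error only. The 3′ untranslated peaks were in the last exon (126 of 131) or in transcripts of a single exon (5), and the coding peaks mostly in internal exons (82 of 104). How all exon bases divide by position of the exon was not counted, so these counts do not separate the peaks from the structure of the genes. For 213 peaks (86.9%) the summit was exonic in every protein-coding transcript that spanned it. The others included those in Itsn1, Fam18a and Bhlhe41.

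The distance limits left peaks at many ranges. The median distance to the nearest protein-coding 5′ end was 8312 bp, with quartiles of 2910 and 18646 bp. That 5′ end belonged to another gene in 88 of 245 peaks (35.9%), among them Wwc1, where it was that of Rars at 4066 bp, and Usp37, where it was that of Vil1 at 19178 bp. Just inside the lower limit were summits in Gja10 at 1009 bp, Slc9a5 at 1010 bp and Synj1 at 1029 bp. Just outside it, and so counted as promoter peaks, were exonic summits in G630016D24Rik at 963 bp, Coq10a at 915 bp and 5031425E22Rik at 865 bp. The signal of these 6 peaks was 32.0, 42.5 and 58.0 inside the limit, and 573, 41.4 and 185 outside it. At the upper limit the farthest members were in Mfhas1 at 91061 bp, Sim1 at 88255 bp and Pik3r3 at 79273 bp, and the nearest exonic peak beyond it was in Pdzd2 at 104278 bp. Chromosomes 3, 11 and 16 held 63 of the 245 exonic peaks (25.7%), against 21.1% of all peaks. A further 747 promoter peaks and 12 peaks beyond 100 kb also lay in exons and are outside the rule.

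Per megabase of sequence, exons held about as many peaks as introns. Exonic sequence within the distance limits covered 52.2 Mb and held 4.69 peaks per Mb (Poisson 95% interval 4.12 to 5.32), against 4.45 (4.29 to 4.60) in introns and 4.07 (3.93 to 4.22) between genes. Promoter sequence held 52.3 per Mb. Within exons the density was 3.75 per Mb (3.06 to 4.54) in coding sequence and 5.76 (4.85 to 6.79) in untranslated sequence. These intervals do not overlap. The difference was not tested further.

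The strongest exonic peaks were mostly in 3′ and 5′ untranslated sequence, with the coding peaks in Phf15 and Crlf2 at ranks 5 and 8. Signal is the authors' own value for each peak, deposited with no scale, and each peak has 1 value from both replicates together. The peak in the last exon of Wwc1, a scaffold protein upstream of the Hippo pathway, had a signal of 1813.5, the highest of the class. Hoxb4, a homeobox transcription factor, had 1645, and its relative Hoxc9 had 650. Both of these Hox summits lay in 5′ untranslated exons, 1961 and 4500 bp from the nearest protein-coding start. Arsa, the lysosomal arylsulfatase that degrades sulfatides, had 1401 and Usp37, a deubiquitinase, had 1171. Gm525 had 798, Itsn1, a scaffold of endocytosis, 676, and the exon shared by Nkiras2 and Zfp385c 649, all in 3′ untranslated sequence. These 8 peaks, like those in Phf15 and Crlf2, stood far above the class, whose median was 53.2 with quartiles of 38.5 and 120.

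In coding sequence the highest signal was 961, in exon 4 of 13 of Phf15, a PHD-finger protein of a histone acetyltransferase complex. Crlf2, a subunit of the receptor for thymic stromal lymphopoietin, followed with 671, Sh2d2a, a signalling adaptor of T cells, with 449, Gpt, an alanine aminotransferase, with 422, and Ssfa2 with 337. The summit in Phf15 lay 11 bp from the border of a 95 bp exon, and that in Sh2d2a 45 bp from the border of a 169 bp exon. Coding peaks lay at a median of 45 bp from the nearest border of exons with a median length of 180.5 bp, so the 300 bp that most peaks cover reach into introns at many of them. Over coding and untranslated peaks together, 213 of 219 with an E-box near the summit (97.3%) had the nearest core whole inside the exon. The rule puts the summit in the exon and the core lies close to it, so this share is partly built in. Coding peaks alone were not counted.

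Outside the 10 strongest, the signals fell quickly. Fam18a had 594, Trp53i13, named as a p53-inducible gene, 530, and Irf2bp2, a transcriptional corepressor, 449. Arsg, a further lysosomal arylsulfatase, had 324 in coding sequence. Lower still came Chrng, a subunit of the muscle acetylcholine receptor, with 305, the phospholipase gene Pla1a with 257, Bhlhe41, a repressor of the circadian clock that itself binds E-boxes, with 246, and Ano7 with 246. The last 3 of the 25 strongest were Tmem169, Polr3b and Mtus1, with 237, 236 and 235, Polr3b encoding a core subunit of RNA polymerase III. In 5′ untranslated sequence the next after Hoxc9 was Mgat1, an enzyme of N-glycan synthesis, with 188.

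**Figure D1:**
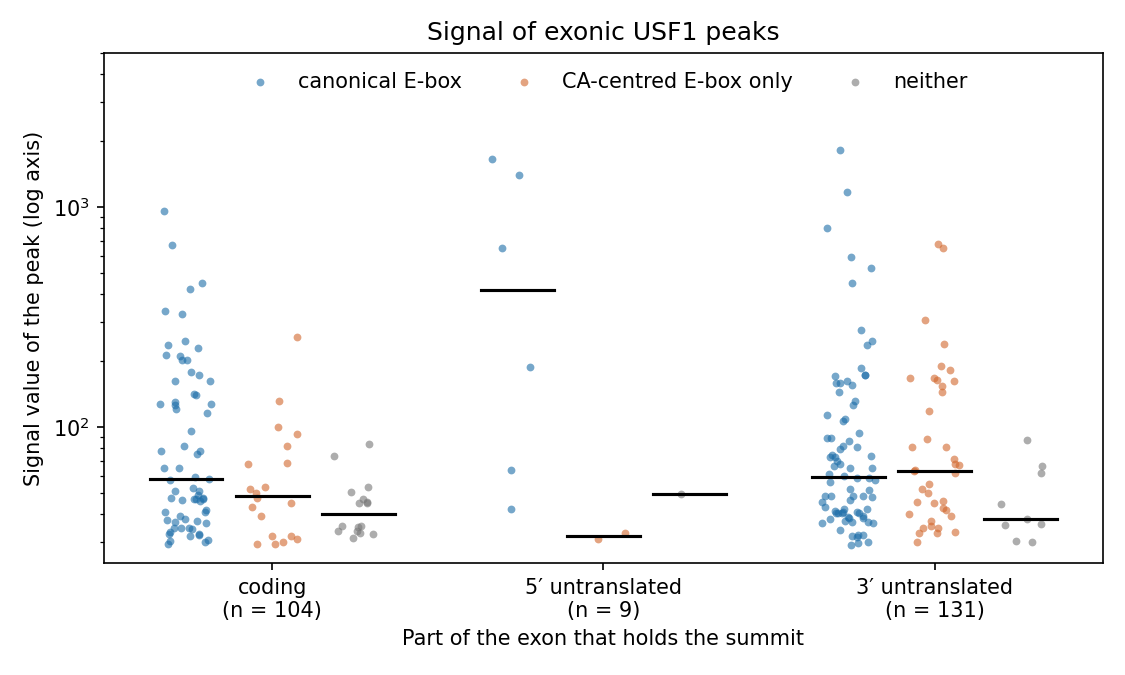
Signal of each exonic peak (authors' value, log axis) by the part of the exon that holds the summit and the kind of E-box within 50 bp; points are peaks and black lines medians, and the Vps13d peak is not drawn. Points with a canonical E-box (CACGTG) reach the highest values in each part, and the highest peak with neither E-box is at 87.4.

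Signal in exonic peaks was close to that of other peaks away from promoters and lower than at promoters. It exceeded the median of the list (62.9, by definition 50% of all peaks) in 108 of 245 exonic peaks (44.1%) and 1448 of 3141 intronic peaks (46.1%). The odds ratio was 0.922 (95% interval 0.709 to 1.20, Fisher's exact test, two-sided, Benjamini-Hochberg adjusted over 10 class comparisons, p = 0.687). With only the strongest peak of each host gene it was 0.700 (adjusted exact p = 0.0189), with shares of 44.1% in exons and 53.0% in introns. That setting keeps the highest of several peaks in a gene, and only 6 of 241 exonic hosts held several. It therefore does not treat the classes alike, and no difference in signal is drawn from it. Against promoter peaks, where 1937 of 3082 (62.8%) exceeded that median, the odds ratio was 0.466 (0.358 to 0.606, adjusted exact p = 1.1e-07). Coding peaks exceeded it in 39.4% and untranslated peaks in 47.5%, with an odds ratio of 0.719 (0.430 to 1.20, adjusted exact p = 0.345).

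Exonic peaks held the canonical E-box more often than intronic and intergenic peaks did. CACGTG lay within 50 bp of 157 of 245 exonic summits (64.1%, 57.9 to 69.8), against 1612 of 3141 intronic summits (51.3%, 49.6 to 53.1) and 53.3% of all peaks of the list. The odds ratio was 1.69 (1.29 to 2.22, Fisher's exact test, adjusted p = 3.6e-04). It was also 1.69 against intergenic peaks, of which 51.4% held the core (adjusted exact p = 3.6e-04). In windows centred 500 bp to either side of the exonic summits the share was 1.02%. The higher share was present in coding peaks (65.4%) and in untranslated peaks (63.1%), which did not differ from each other beyond counting error (odds ratio 1.10, interval 0.650 to 1.87, adjusted exact p = 0.875).

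Over all exonic peaks the difference was made up by the CA-centred E-box. CACATG without CACGTG was found at 62 of 245 exonic summits (25.3%, 20.3 to 31.1), against 1195 of 3141 intronic summits (38.0%) and 30.1% of all peaks. The odds ratio was 0.552 (0.410 to 0.742, adjusted exact p = 3.2e-04). Peaks with neither core were 26 of 245 (10.6%) in exons and 334 of 3141 (10.6%) in introns, against 16.6% of all peaks, with an odds ratio of 0.998 (0.654 to 1.52, adjusted exact p = 1). Coding peaks held only CACATG in 19.2% and untranslated peaks in 29.8%, a difference that was not tested. Set against introns, the odds ratio for CACATG alone was 0.388 for coding peaks (adjusted exact p = 3.0e-04) and 0.691 for untranslated peaks (adjusted exact p = 0.101). Neither core was found at 15.4% of coding peaks (odds ratio against introns 1.53, adjusted exact p = 0.166). In untranslated peaks that share was 7.09% (0.642, adjusted exact p = 0.275).

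**Figure D2:**
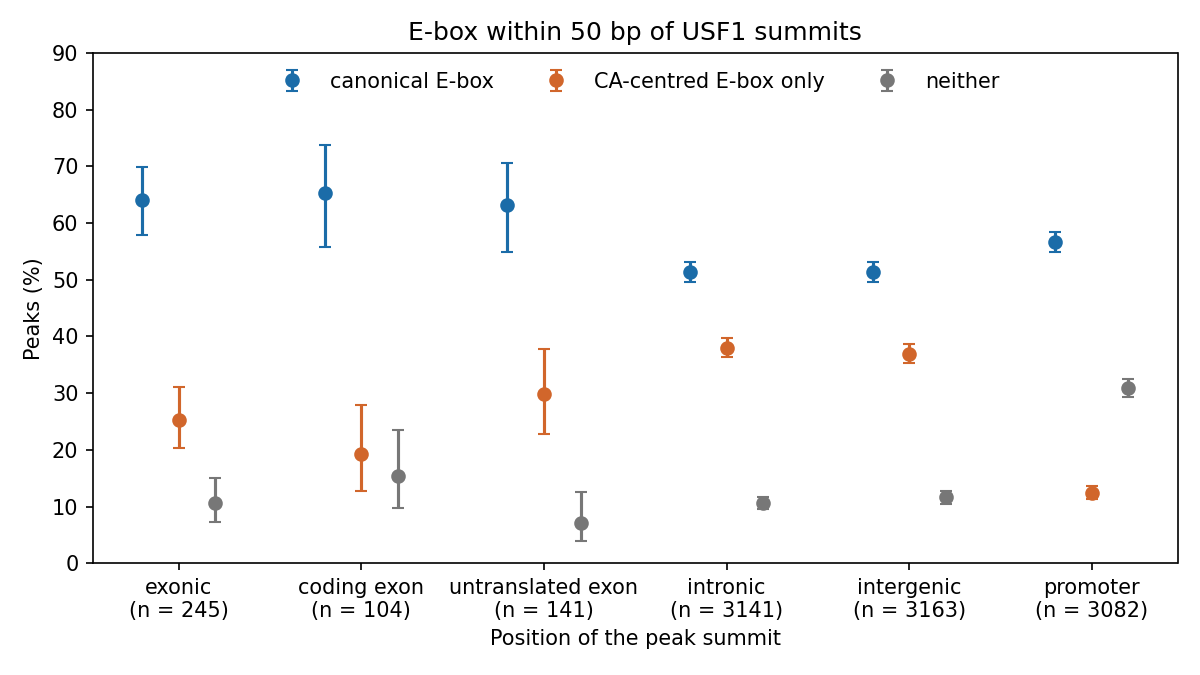
Percent of peaks with a canonical E-box (CACGTG), only a CA-centred E-box (CACATG) or neither within 50 bp of the summit, by position of the summit; bars are 95% Wilson intervals. Exonic peaks stand at 64.1% canonical, above intronic peaks at 51.3%, and at 25.3% CA-centred only, below intronic peaks at 38.0%.

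Against promoter peaks the comparison turned on signal. CACGTG was near 56.7% of promoter summits, and the odds ratio of exonic over promoter peaks was 1.36 (1.04 to 1.78, adjusted exact p = 0.0446). Among peaks in the stronger 50% of the list the shares were 71.3% in exons and 70.3% at promoters (odds ratio 1.05, adjusted exact p = 1). Among peaks in the weaker 50% they were 58.4% in exons and 33.7% at promoters (odds ratio 2.76, adjusted exact p = 3.2e-07). The exonic share exceeded the intronic one among stronger and among weaker peaks, with odds ratios of 2.00 (adjusted exact p = 0.0118) and 1.53 (adjusted exact p = 0.0412).

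The E-box sat at the summit. Among exonic peaks with CACGTG, 142 of 157 (90.4%) had its centre within 25 bp, at a median distance of 10.5 bp, and among those with only CACATG 56 of 62 (90.3%) did, at a median of 10 bp. More than 1 copy of CACGTG was rare, in 2 of 245 exonic windows (0.816%) and 68 of 3141 intronic windows (2.16%). Median signal was 59.6 in exonic peaks with CACGTG, 52.9 in those with only CACATG and 41.3 in those with neither. The order of the 2 cores was not the same in each part of exons. In 3′ untranslated sequence the medians were 59.0 with CACGTG (82 peaks) and 63.3 with only CACATG (40 peaks). In coding sequence they were 57.8 (68 peaks) and 48.6 (20 peaks), and in 5′ untranslated sequence 419 (6 peaks) and 31.9 (2 peaks). These differences in signal were not tested. The 5 highest peaks all had CACGTG.

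**Figure D3:**
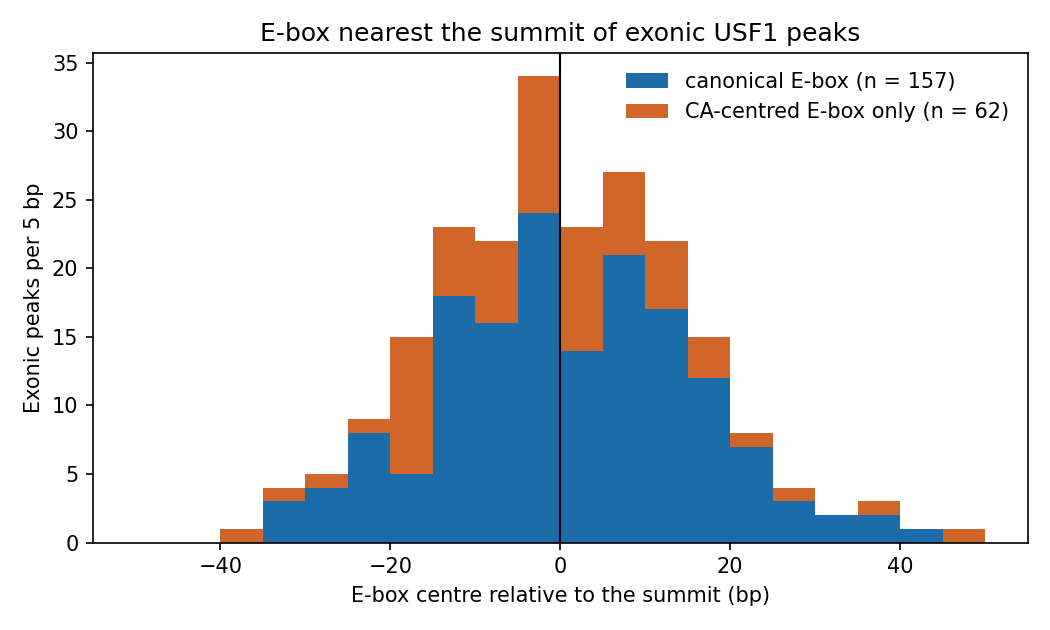
Number of exonic peaks per 5 bp of distance between the summit and the centre of the nearest E-box, along the chromosome, for peaks with a canonical E-box and for peaks with only a CA-centred one. Both kinds gather around the summit, with 142 of 157 and 56 of 62 within 25 bp.

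The genome offers these cores in different numbers in exons and introns. Within the distance limits exonic sequence held 159 copies of CACGTG per Mb, against 123 in introns, a ratio of 1.29. For CACATG the densities were 666 per Mb in exons and 999.9 in introns, a ratio of 0.666. Exons thus had 4.19 copies of CACATG for each CACGTG and introns had 8.13. Coding sequence had the lowest value, 3.14, and 3′ untranslated sequence had 5.73.

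Per copy, the share bound in exons did not differ from that in introns beyond counting error. A summit lay within 50 bp of 165 of 8311 exonic copies of CACGTG (1.99%, 1.71 to 2.31), against 1682 of 86918 intronic copies (1.94%, 1.85 to 2.03) and 2.28% of all copies in the genome. The odds ratio was 1.03 (0.873 to 1.21, Fisher's exact test, p = 0.739). For CACATG, a test added after the values were seen, the shares were 0.241% in exons and 0.229% in introns (odds ratio 1.05, 0.846 to 1.31, exact p = 0.646). Promoter copies of CACGTG were bound in 19.2%. Within exons the bound share of CACGTG was 1.61% (1.29 to 2.01) in coding sequence, 2.41% (1.95 to 2.99) in 3′ untranslated sequence and 6 of 112 (5.36%, 2.48 to 11.2) in 5′ untranslated sequence.

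**Figure D4:**
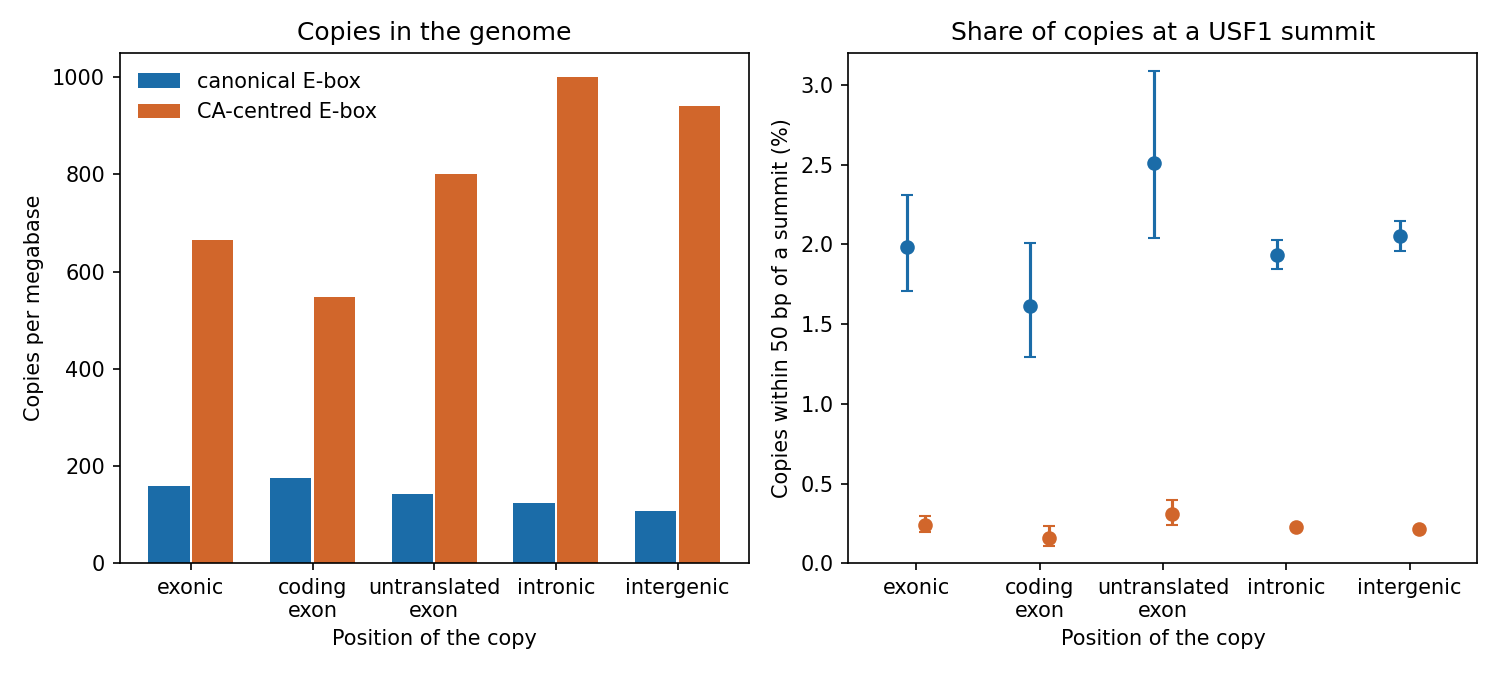
Left, copies of the canonical (CACGTG) and the CA-centred (CACATG) E-box per megabase by position of the copy; right, percent of those copies within 50 bp of a USF1 summit, with 95% Wilson intervals. Exons hold more canonical copies per megabase (159 against 123 in introns) and fewer CA-centred ones (666 against 999.9), while the bound shares of exonic and intronic copies overlap.

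The bases beside the core differed between exonic and intronic peaks in 1 respect. Read on whichever strand comes first in the alphabet, the commonest octamer at exonic peaks was CCACGTGA, at 46 of 157 (29.3%), against 28.7% of intronic peaks with CACGTG. The palindrome TCACGTGA was found at 20 of 157 exonic peaks (12.7%), against 380 of 1612 intronic peaks (23.6%). In a test added after these values were seen, with adjustment over 10 octamers, the odds ratio was 0.473 (Fisher's exact test, adjusted p = 0.0134), and no other octamer passed. The palindrome was at 5 of 68 coding peaks (7.35%, 3.18 to 16.1) and 14 of 82 peaks in 3′ untranslated sequence (17.1%, 10.5 to 26.6). The second interval holds the intronic share, and this split was not tested. Among promoter peaks with CACGTG it was at 18.5%. TCACGTGA made up 4.07% of exonic and 4.77% of intronic copies of the core. It was the octamer bound most often in both, at 6.51% of exonic copies (22 of 338, interval 4.34 to 9.66) and 9.47% of intronic copies (8.62 to 10.4), a difference that missed the threshold (unadjusted exact p = 0.0783, adjusted exact p = 0.783). CCACGTGA copies were bound in 4.51% in exons and 4.39% in introns. Among the sequences shown above, Arsa and Phf15 hold the palindrome, and Hoxb4, Hoxc9, Wwc1, Usp37, Bhlhe41, Crlf2 and Ssfa2 hold CCACGTGA or its reverse. Of the 62 peaks with only CACATG, 25 held TCACATGA and 15 held TCACATGG.

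In coding sequence the step of the core against the codons was compared between bound and unbound copies. Of 77 bound copies with a single reading frame, 49 (63.6%, 52.5 to 73.5) were the whole codons CAC and GTG, against 2704 of 4521 unbound copies (59.8%). The core began at the middle base of a codon in 14 bound copies (18.2%) and 15.0% of unbound ones, and at the last base in 14 (18.2%) and 25.2%. The distributions did not differ beyond counting error (Fisher-Freeman-Halton exact test, two-sided, p = 0.309). At 77 bound copies the interval is wide, and a difference of a few percentage points was not detectable.

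Beyond the E-box, 12 short motif strings were searched on both strands of the windows of 50 bp to each side. Only GGGCGG, the GC box of SP and KLF factors, passed the test, at 24 of 245 exonic peaks (9.80%) and 4.11% of intronic peaks (Fisher's exact test, adjusted over 12 strings, p = 0.00356). It was in 13.2% of all peaks and in 2.86% of the flanking windows of exonic peaks. The windows of exonic peaks had a median GC content of 53.5%, against 51.5% in introns and 63.4% at promoters, and the part of base composition in this difference was not tested. The IRF string AANNGAAA was at 5.71% of exonic and 9.87% of intronic peaks and the RUNX string TGTGGT at 7.76% and 12.0%, and neither passed after adjustment (adjusted exact p = 0.175 for both). TCACGTGAC, the longer E-box form bound by TFEB, overlaps the searched core and was at 20 exonic peaks (8.16%) and 10.95% of intronic peaks (adjusted exact p = 0.397).

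Some exonic peaks lay near starts that the rule did not use. Transcripts that are not protein-coding had a 5′ end within 1 kb of 27 of 245 exonic summits (11.02%, 7.69 to 15.6), against 180 of 3141 intronic summits (5.73%) and 17.0% of all peaks. The odds ratio was 2.04 (1.33 to 3.12, Fisher's exact test, adjusted p = 0.00412). It was 1.77 (adjusted exact p = 0.0690) with starts within 500 bp, and 1.28 (adjusted exact p = 0.721) among peaks with a −log10 q above the median of the list. The nearest such start was that of a processed transcript at 13 peaks and of a retained-intron transcript at 7, and at 22 of the 27 it belonged to the host gene. Arsa was the strongest of them, with a retained-intron transcript starting 52 bp from the summit, followed by Fam18a at 591 bp and Mgat1 at 232 bp. Without these peaks the share of exonic peaks with CACGTG was 62.4%, against 51.4% in introns (odds ratio 1.57, adjusted exact p = 0.00491). How often exonic and intronic sequence without a peak lies that near such a start was not counted. The odds ratio therefore does not separate the peaks from the exons that hold them. Whether any of these transcripts is made in CH12.LX was not measured.

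The 245 peaks lay in 241 host genes, and most hosts had no USF1 peak at their own start. A peak within 1 kb of an own 5′ end was found in 49 of 241 hosts (20.3%, 15.7 to 25.9), against 481 of 2176 genes with only intronic peaks (22.1%) and 14.2% of all protein-coding genes. The odds ratio was 0.899 (Fisher's exact test, p = 0.566). Ceacam19 held 3 exonic peaks, with signals of 154, 88.9 and 66.6, all in its last exon. A830007P12Rik, Ankrd13d, Ctdsp1, Itpkb and Itsn1 held 2 each, so these peaks share a host. In Itsn1 the peak with CACATG had a signal of 676 and the one 541 bp away, with CACGTG, had 72.9. There were 2 peaks in exons of 2 genes, among them that of Nkiras2, a regulator of NF-κB signalling, and Zfp385c, whose last exons overlap.

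Host genes were looked up in lists of functions linked to USF1 or to B cells. Hosts of exonic peaks were 240 of 22238 gene symbols (1.08%), and 2170 symbols (9.76%) were hosts of intronic peaks only. With so small a share of all symbols as exonic hosts, a count of 0 or 1 in lists of this length is near the background and says nothing about a function. The exonic hosts included 0 of 25 genes of the vacuolar proton pump, 1 of 53 lysosomal genes (Arsa), 0 of 42 autophagy genes, 0 of 25 genes of the stress response of the endoplasmic reticulum, 0 of 18 genes of helix-loop-helix zipper factors and 0 of 43 cell cycle genes. The lists are not complete, and the host Arsg, a lysosomal arylsulfatase named above, was not on the lysosomal one. Of 24 clock genes 3 were hosts, each with CACGTG in its 3′ untranslated sequence: Bhlhe41 with a signal of 246, Per3, a Period protein, with 145, and Csnk1e, a kinase that phosphorylates Period proteins, with 131. The Bhlhe41 summit was not exonic in every transcript that spanned it. With 24 genes the list is short, and 4 others were hosts of intronic peaks only. Of 41 B-cell genes 1 was a host, Spib, an ETS factor of B cells, with a signal of 126 in 3′ untranslated sequence, while 15 were hosts of intronic peaks only. None of the 10 B-cell markers looked up, among them Cd79a, Ms4a1 and Cd22, was a host of an exonic peak, and 3 (Ebf1, Pax5 and Ptprc) were hosts of intronic peaks only. Of 83 ribosomal protein genes 2 were hosts, Rps15a with 44.5 and no E-box and Rpl8 with 31.9 and CACGTG. Of 367 zinc finger genes taken by a Zfp symbol 3 were hosts, Zfp385c with 649, Zfp703 with 65.3 and Zfp275 with 48.3. Zinc finger genes with other symbols were not counted. Peak lists hold no expression, so the identity of the cells and the levels of the hosts could not be checked.

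The replicates were deposited as separate lists in mm10, and sites were matched through host genes with no conversion of coordinates. A host was used where it held a single mm9 summit and a single summit of the authors' optimal mm10 list, which was thresholded by IDR, a comparison of the ranks of peaks between lists. Of 96 such genes, 90 had the summit at the same place in the gene within 300 bp. Of these 90 sites, 89 (98.9%, 94.0 to 99.8) overlapped a region of each replicate, and 805 of 809 intronic sites matched in the same way did (99.5%). The optimal list was derived from lists of these replicates, so this share is partly built in. The exception was Zfp275, listed with a signal of 33.3 in replicate 2 and with no region in replicate 1.

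At the 89 matched sites, signal followed a similar order in both replicates. These sites had to be on the optimal list, and few of the weakest exonic peaks were among them. Hoxb4 had 249.6 in replicate 1 and 246.7 in replicate 2, Arsa had 242.6 and 255.1, Usp37 had 233.4 and 237.1, and Crlf2 had 186.7 and 197.1. The log2 ratio of replicate 2 over replicate 1 was between -0.02 and 0.08 at these 4 sites. Over 89 exonic sites the log2 ratio (replicate 2 over replicate 1) had a median of 0.25 and an SD of 0.52, and over 805 intronic sites a median of 0.23 and an SD of 0.52. Replicate 2 had the higher signal at 59 of 89 sites. Signal differed by more than 2-fold at 6 of 89, each higher in replicate 2, among them Padi4 with 36.2 in replicate 1 and 92.7 in replicate 2 and 2210010C17Rik with 37.2 and 103.8. These examples were chosen after their values were seen. Spearman's rho across the 89 sites, which share both libraries, was 0.841 as a description.

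**Figure D5:**
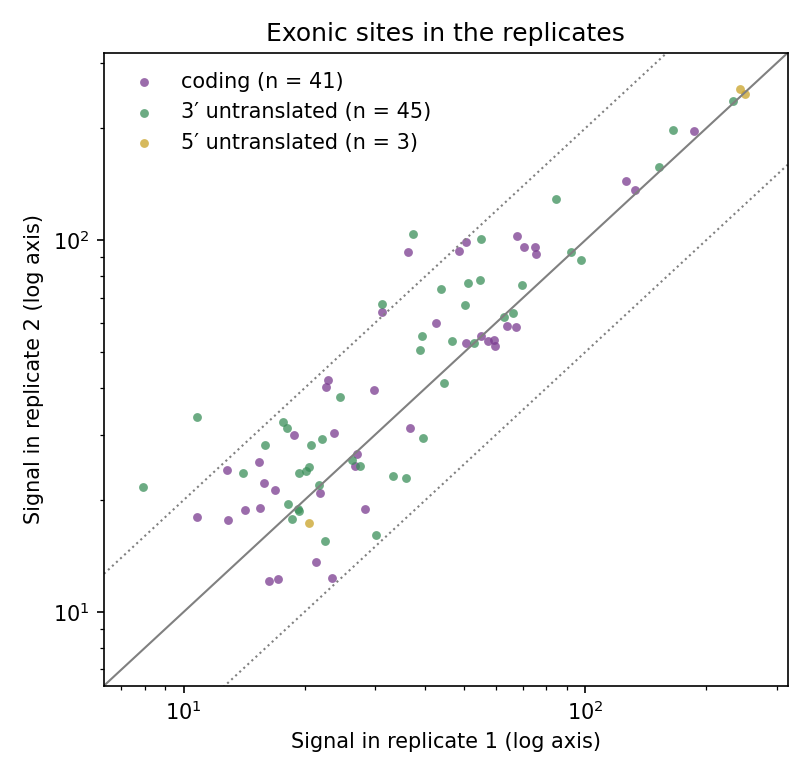
Signal of 89 exonic sites in replicate 1 and replicate 2 (authors' values in mm10, log axes), by part of the exon; the solid line marks equal signal and the dotted lines a 2-fold difference. Points lie close to the solid line at high signal, and 6 lie beyond the dotted line on the side of replicate 2.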

How the data were processed

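USF1 ChIP-seq of 2 biological replicates of CH12.LX was used as deposited lists of regions. Per the deposited readme files, the mm9 list was derived from both replicates' alignments, and each replicate has a relaxed mm10 list. The aligner, the caller of peaks and any cut-off were not given in the sources used here, and depth is unknown. The signal value of each region was deposited by the authors with no stated scale and was set side by side only inside 1 build. The −log10 q came from column 9 of that mm9 list, as deposited. The summit was the start plus the deposited offset. The reference genome (NCBIM37) has the chromosome lengths of mm9, so summits, Gencode vM1 exons and windows of 101 bp share 1 build; coordinates are 1-based.

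The members, gene lists, strings and tests were chosen with earlier results of these data known, and patterns already known for the whole list are no independent support. Counts of peaks were compared by two-sided Fisher's exact tests, with Benjamini-Hochberg adjustment over 10 class comparisons and a threshold of 0.05; occupancy, reading frame and host promoter tests stand alone, unadjusted. Exonic copies of the cores were counted over all exon bases within the same distance limits. Odds ratio intervals are 95% Wald intervals. Alternatives were other windows, strengths, distances, starts, transcripts, chromosomes and lists. In the gene lists 721 of 728 entries matched a symbol. Named genes were the 25 peaks of highest signal, the 5 highest in each part of exons, every host on a gene list and the peaks nearest the limits; others are said to be chosen later or illustrate a count. A few genes that the rule takes are not reported here. The shared code recovered made-up annotations, codon steps and planted cores in tests on simulated data. Python 3.11.15, numpy 2.4.6, scipy 1.17.1, pysam 0.24.0 and matplotlib 3.10.9 were used.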

Additional observations from a re-analysis of the deposited data

How the results depend on the processing

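The 14 main results were recomputed under 93 alternatives in all, and 69 values kept their direction and their side of the threshold. The higher share of CACGTG in exonic than in intronic and intergenic peaks did so under every alternative run for it, with odds ratios against introns of 1.51 to 2.08. The lower share of CACATG alone did so with odds ratios of 0.526 to 0.604, and for coding peaks alone (0.388), but lost its call for untranslated peaks alone (0.691, adjusted exact p = 0.101). Leaving out chromosomes 3, 11 and 16, which hold more relaxed regions per replicate than others of their length, and taking coding or untranslated peaks alone were chosen after seeing the data.

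The comparison with promoters for CACGTG lost its call in windows of 25 bp (1.22), among the stronger 50% of peaks (1.05), above the median −log10 q (1.08), beyond 5 kb (1.24), without peaks near other starts (1.27), for peaks exonic in every transcript (1.35) and without the 3 chromosomes (1.35). The odds ratio of neither core, which was never called, passed 1 in windows of 25 bp (1.05), among weaker peaks (1.26), beyond 5 kb (1.09), without other starts (1.001), with 1 peak per gene (1.08), in every transcript (1.12) and without the 3 chromosomes (1.11). Other uncalled ratios crossed 1 as well. Coding against untranslated peaks gave 0.909 among weaker peaks and 0.955 beyond 5 kb, occupancy gave 0.995 above the median −log10 q and 0.984 without the 3 chromosomes, and host promoters gave 1.01 within 500 bp. Signal against introns became a call with 1 peak per gene (0.700), a setting that keeps the highest of several peaks in a gene. The share near other starts lost its call above the median −log10 q (1.28) and within 500 bp (1.77). The cause of these changes was not tested. Signal was not compared above the median −log10 q, where nearly all peaks also exceed the median signal.

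The share of sites found in the replicates was 97.8% with an overlap of at least 50%, 100% in the conservative list, and 98.9% to 100% with 1 replicate left out. No paired analysis was possible because there is only 1 group. Class comparisons have no value per replicate, since the mm9 list pools both.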
